A study of Mus musculus with 60 samples.

Results

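The proteasome genes described here were the 48 of 22869 gene symbols that begin Psma, Psmb, Psmc, Psmd, Psme or Psmg, chosen by symbol. They comprised 8 Psma, 11 Psmb, 7 Psmc, 14 Psmd, 4 Psme and 4 Psmg genes. Their RNA was counted in microglia, the resident macrophages of the brain, taken from male and female mice of the C57BL/6N background. Sex is given here as in the sample titles, which disagreed with the sex field in 10 libraries. The untreated groups were 7 libraries at embryonic day 18 (E18, 4 male and 3 female), 8 at postnatal day 4 (P4, 4 and 4) and 20 at postnatal day 14 (P14, 10 and 10). At postnatal day 60 (P60), 13 libraries came from mice given lipopolysaccharide (LPS, a bacterial outer-membrane component, 7 male and 6 female) and 12 from mice given saline (5 male and 7 female). The sources used here state neither the dose of LPS nor the interval before collection, nor whether each library was 1 animal, so p-values measure the spread between these libraries, part of which may be technical.

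The proteasome is the complex that degrades ubiquitin-tagged proteins into short peptides. Its barrel-shaped 20S core has outer rings of alpha subunits (Psma genes) and inner rings of beta subunits (Psmb genes), and a 19S cap of ATPases (Psmc genes) and other subunits (Psmd genes) unfolds the substrate and feeds it in. The 3 beta subunits that cut proteins are Psmb6 (caspase-like), Psmb7 (trypsin-like) and Psmb5 (chymotrypsin-like). In the immunoproteasome, which interferon gamma induces, newly built cores carry Psmb9, Psmb10 and Psmb8 in those positions, and the cap can be replaced by the activator ring of Psme1 and Psme2, which favours peptides for presentation on class I molecules. The Psmg products are chaperones of core assembly, and those of Psmd5, Psmd9 and Psmd10 of cap assembly.

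Promoter sequence is shown for genes whose RNA moved differently below: Psmb8 and Psmb9, which were higher at P60 than at E18, Psmb5, which was lower, and Psme1, which was higher with LPS. Each window runs from 250 bases before the annotated start to 50 bases of transcript, in RefSeq on GRCm38.p6, and 40 of the 48 genes had such a window. Capitals mark matches to 3 motifs searched on both strands: the core of the interferon-stimulated response element, which is GAAA, any 2 bases and GAAA, the gamma-activated site, TTCNNNGAA, and the core of the antioxidant response element, TGACNNNGC. The Psmb8 window lies on the forward strand at chr17:34197945-34198244, that of Psmb5 on the reverse strand at chr14:54617946-54618245, that of Psmb9 on the reverse strand at chr17:34187281-34187580 and that of Psme1 on the forward strand at chr14:55578244-55578543.
Psmb8: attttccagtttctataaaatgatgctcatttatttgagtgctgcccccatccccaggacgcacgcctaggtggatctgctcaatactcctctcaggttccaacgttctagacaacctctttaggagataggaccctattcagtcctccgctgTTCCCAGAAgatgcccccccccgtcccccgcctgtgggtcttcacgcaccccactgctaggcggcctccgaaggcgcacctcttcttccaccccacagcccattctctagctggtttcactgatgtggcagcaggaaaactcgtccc
Psmb5: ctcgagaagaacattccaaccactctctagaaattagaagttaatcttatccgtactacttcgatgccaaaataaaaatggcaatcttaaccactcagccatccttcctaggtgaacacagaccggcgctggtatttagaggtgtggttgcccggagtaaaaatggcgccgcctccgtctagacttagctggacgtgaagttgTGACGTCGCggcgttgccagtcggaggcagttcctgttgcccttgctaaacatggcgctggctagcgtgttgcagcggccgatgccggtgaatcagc
Psmb9: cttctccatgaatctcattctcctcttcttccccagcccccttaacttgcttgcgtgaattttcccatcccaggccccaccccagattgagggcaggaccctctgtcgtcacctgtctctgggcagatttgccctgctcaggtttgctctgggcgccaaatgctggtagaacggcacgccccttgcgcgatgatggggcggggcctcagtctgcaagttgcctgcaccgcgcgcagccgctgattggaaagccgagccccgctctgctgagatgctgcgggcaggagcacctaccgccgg
Psme1: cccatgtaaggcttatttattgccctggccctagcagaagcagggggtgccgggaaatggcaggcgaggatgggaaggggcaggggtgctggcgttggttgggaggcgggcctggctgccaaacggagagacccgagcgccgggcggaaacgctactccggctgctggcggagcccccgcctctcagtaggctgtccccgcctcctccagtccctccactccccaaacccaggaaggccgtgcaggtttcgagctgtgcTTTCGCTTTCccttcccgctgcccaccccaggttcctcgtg
The capitals in Psmb8 are a gamma-activated site that begins 97 bases before the start, those in Psmb5 an antioxidant response element core 47 bases before it, and those in Psme1 an interferon-stimulated response element core, on the opposite strand, that begins 10 bases after it. None of the 3 motifs occurred in the windows of Psmb9, Psmb10 or Psme2. Over the 40 genes, 5 held the interferon-stimulated response element core (12.5%, against 3.99% of the 27025 genes with a window in the RefSeq table), 3 the gamma-activated site (7.5%, against 9.55%) and 6 the antioxidant response element core (15%, against 14%). These matches describe letters in a window and say nothing of binding.

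Total counts ran from 802016 to 3497454 per library, with medians of 970080 for P60 LPS libraries and 2092799 for P60 saline libraries. The summed level of 8 microglial markers had medians of 3454 counts per 1000000 counts of a library (CPM) at E18, 11280 at P4, 19935 at P14 and 29366 in P60 saline libraries, and all 8 were called higher at P4 than at E18. 3 libraries stood apart, with over 10% of their counts in Ttr, a gene of the choroid plexus: male E18 libraries 4 (24.8%) and 3 (10.4%), and female P60 saline library 6 (12%). Those 3 also held the largest shares of counts on transcripts of up to 1500 bases, at 44.8%, 22.5% and 27.8%. Their summed proteasome levels, given next, were 7471, 5031 and 4524 CPM. In a bulk library, fewer cells of a type and less RNA per cell cannot be told apart.

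The proteasome genes took a falling share of the counts of these libraries through development. Their summed level had a median of 5031 CPM at E18 (range 3850 to 7471), 3478 at P4 (3261 to 3538), 2861 at P14 (2407 to 3738) and 2664 in P60 saline libraries (2378 to 4524), against 2538 in P60 LPS libraries (2136 to 3313). Without the 3 libraries over 10% Ttr the medians were 3951 CPM at E18 (3850 to 5255) and 2663 CPM in P60 saline libraries (2378 to 2825). The 3 constitutive catalytic genes summed to medians of 464 CPM at E18, 238 at P4, 174 at P14 and 150 in P60 saline libraries, while the 3 immune catalytic genes summed to 47.1, 71.1, 71.4 and 91.2 CPM at the same stages. The activators had summed medians of 379, 393, 339 and 304 CPM.

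**Figure D1:**
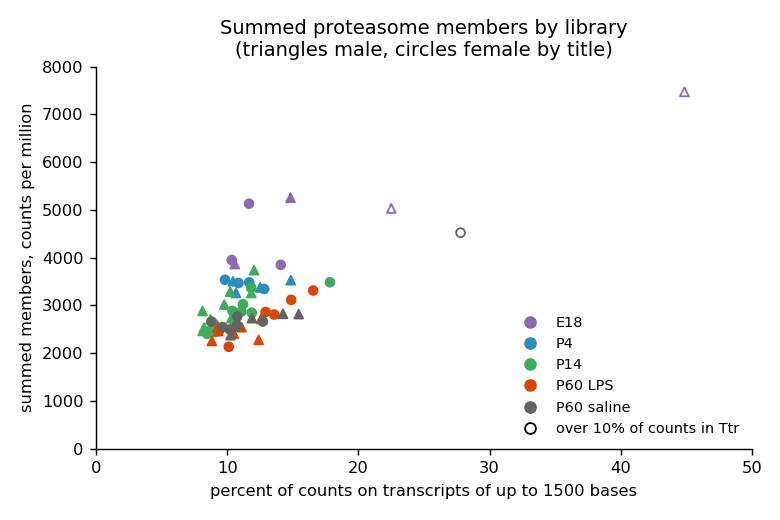
Summed level of the 48 proteasome genes (CPM, vertical axis) against the percent of counts on transcripts of up to 1500 bases (horizontal axis), 1 point per library, coloured by group, with open points for the 3 libraries over 10% Ttr. Male E18 library 4 is at the far right at 7471 CPM, and the P4 libraries lie in a narrow band between 3261 and 3538 CPM.

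Many core and cap genes were lower at P4 than at E18. Of 47 genes tested, 26 were lower at P4 and 1 was higher, where 22.7% of all 13853 genes tested were lower and 25.5% higher (edgeR, adjusted p under 0.05). The median log2 fold change was -0.49 over the proteasome genes and 0.03 over all genes tested. All 3 constitutive catalytic genes and all 4 other beta ring genes (Psmb1, Psmb2, Psmb3 and Psmb4) were lower. So were 4 of 7 alpha ring genes, 3 of 6 ATPases, 6 of 11 other cap subunits, 3 of 4 core chaperones, 2 of 3 cap chaperones and the activator Psme1.

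Psmb5, the chymotrypsin-like subunit, had 22.0 to 35.3 CPM in the 8 P4 libraries (median 27.8), against 38.2 to 175 CPM in the 7 E18 libraries (median 63.7). The groups did not overlap, and the log2 fold change was -1.25 ± 0.28 (SE, adjusted p = 2.8e-04). Psmb7, the trypsin-like subunit, had a median of 98.5 CPM at P4 (88.5 to 118), against 190 CPM at E18 (127 to 465), also without overlap, and changed by -1.05 ± 0.22 (adjusted p = 1.0e-04). Psmb6, the caspase-like subunit, had a median of 109 CPM at P4 (96.3 to 128), against 210 CPM at E18 (120 to 513), and changed by -0.98 ± 0.24 (adjusted p = 8.1e-04). Here the ranges overlapped. Psmb3, a structural beta subunit, fell by 0.99 on the log2 scale (SE 0.30, adjusted p = 0.0058), a call that was lost without male E18 library 4 (-0.58, adjusted p = 0.059). Male E18 library 4 had the highest E18 level of Psmb5, Psmb6 and Psmb7. Without the libraries over 10% Ttr all 3 were still called, with smaller changes of -0.82 for Psmb5 (adjusted p = 8.7e-04), -0.61 for Psmb6 (adjusted p = 4.8e-04) and -0.68 for Psmb7 (adjusted p = 1.7e-05).

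None of the immune catalytic genes was called. Psmb8 had a median of 39.6 CPM at P4 (19.1 to 50.7), against 22.5 CPM at E18 (17.9 to 54.8), with a log2 fold change of 0.52 ± 0.27 that missed the threshold (adjusted p = 0.10). Without male E18 library 4 its rise was called, at 0.79 (adjusted p = 0.0073). Psmb9 (0.28 ± 0.30, adjusted p = 0.44) and Psmb10 (0.04 ± 0.29, adjusted p = 0.92) were not called. Psme4, the large single-chain nuclear activator, was the 1 gene that rose, to a mean of 198 ± 13.8 CPM at P4, against 136 ± 58.2 CPM at E18 (SD, n = 8 and 7), a log2 fold change of 0.65 ± 0.15 (adjusted p = 3.9e-04). Psme1 fell by 0.39 (SE 0.13, adjusted p = 0.015), whereas Psme2 (0.03 ± 0.33) and the nuclear activator Psme3 (0.03 ± 0.13) were not called.

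The E18 libraries also differed from the P4 libraries in other ways. The 6 neuronal markers were all lower at P4, where they summed to 32.2 to 170 CPM, against 597 to 2638 CPM at E18. Microglial markers were higher at P4, as given above, as were all 6 neutrophil markers, which summed to a median of 1085 CPM at P4 and 243 CPM at E18, and 3 of 4 monocyte markers. The 4 red blood cell markers tested were all lower at P4, with summed medians of 129 CPM at P4 and 940 CPM at E18. Transcript length moved with the result too. Of the 48 genes, 25 (52.1%) had transcripts of up to 1500 bases, against 30.9% of all genes with a length. Among the shorter genes, 16 of 25 proteasome genes and 39.8% of all genes tested were lower at P4, with medians of -0.57 and -0.51. Among the longer ones, 10 of 22 proteasome genes and 19.7% of all genes were lower, with medians of -0.34 and 0.11. Leaving out the 2 E18 libraries over 10% Ttr and the P60 saline one gave 19 lower and 3 higher, with a median of -0.31, against -0.01 over all genes. In that fit 10 of 25 shorter proteasome genes were lower, against 26.8% of all shorter genes, and 9 of 22 longer ones, against 22.4%. The part of these cell types or of length in the fall was not tested.

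**Figure D2:**
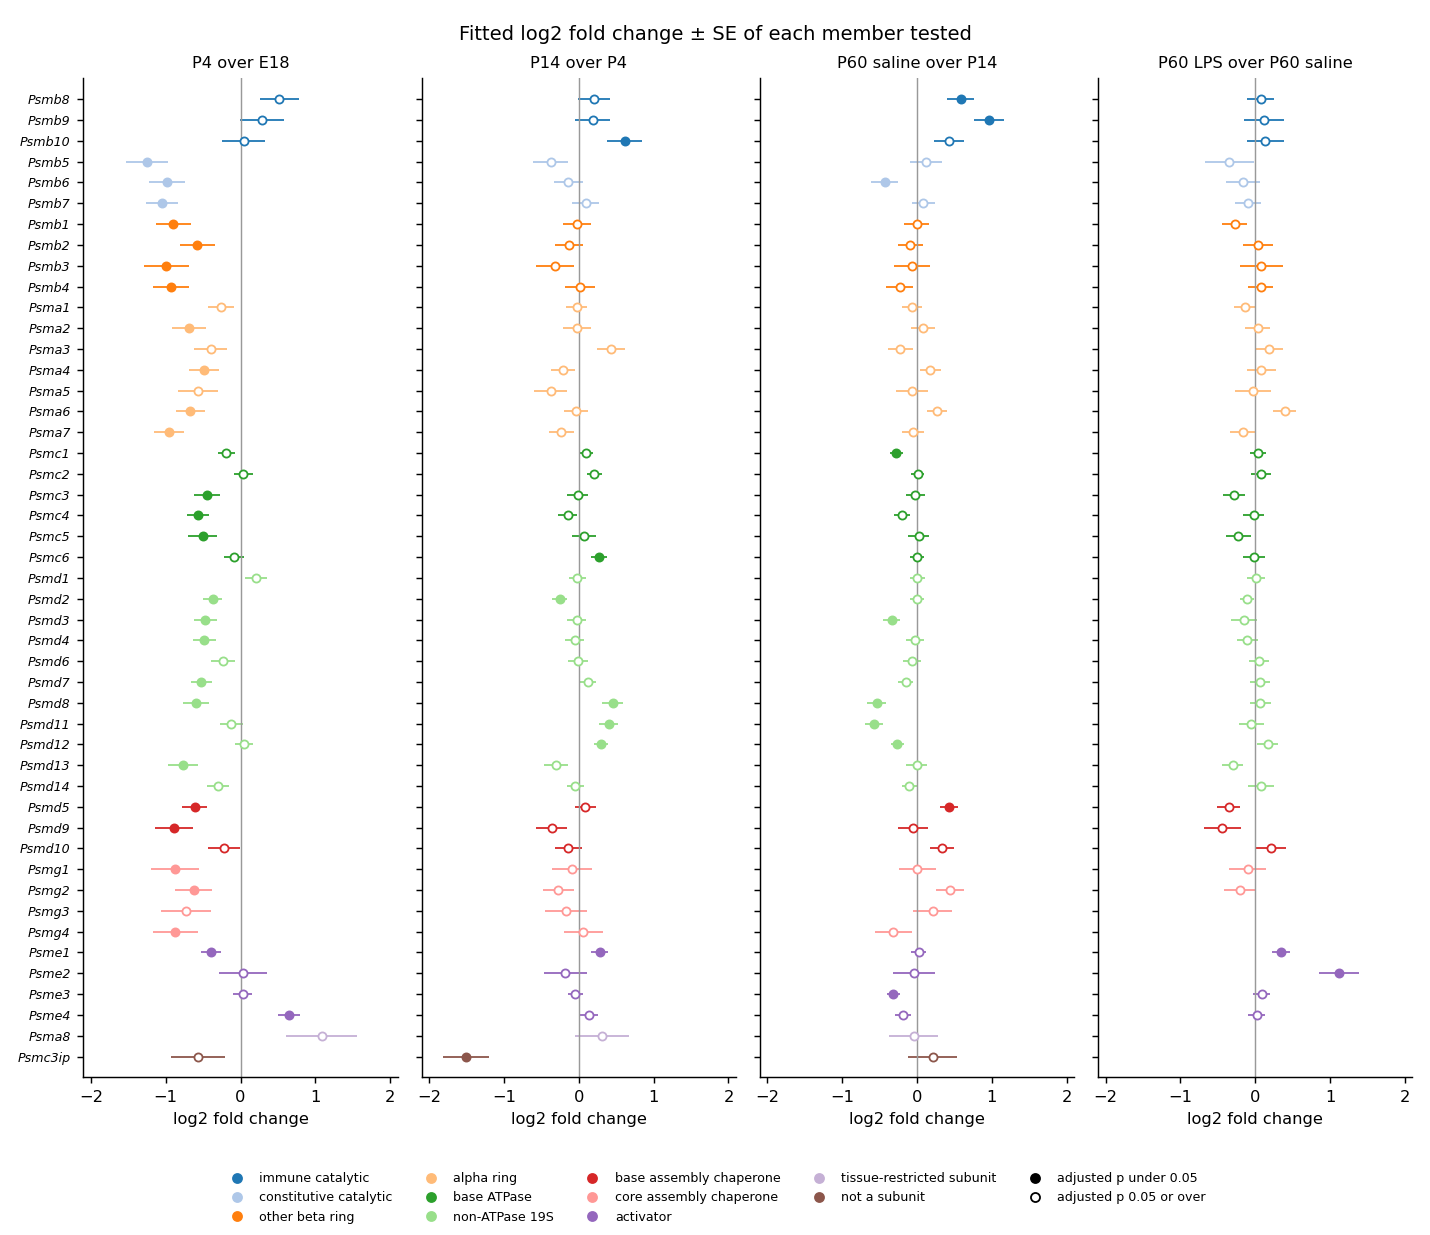
Log2 fold change and its SE for each proteasome gene tested (vertical axis, grouped by role) in P4 over E18, P14 over P4, P60 saline over P14 and P60 LPS over P60 saline. Filled points passed an adjusted p of 0.05: 27 in the P4 panel, 8 in the P14 panel, 10 in the P60 saline panel and 2 in the LPS panel.

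Between P4 and P14 few proteasome genes were called. Their median log2 fold change was -0.03, against -0.01 over all genes tested, and 6 of 47 were called higher and 2 lower, where 20.6% and 20.8% of all genes were. Psmb10 was called higher (0.61 ± 0.24, adjusted p = 0.033), with a mean of 26.0 ± 9.69 CPM at P14 and 20.8 ± 4.32 CPM at P4 (SD, n = 20 and 8). The others called higher were the cap subunits Psmd8 (0.46 ± 0.14), Psmd11 (0.40 ± 0.13) and Psmd12 (0.30 ± 0.10), the ATPase Psmc6 (0.27 ± 0.11) and Psme1 (0.28 ± 0.11). Psmd2, a large cap subunit, fell by 0.25 (SE 0.10, adjusted p = 0.038). Psmb9 (0.19 ± 0.24), Psmb8 (0.20 ± 0.21), Psmb5 (-0.38 ± 0.23), Psmb6 (-0.14 ± 0.19), Psmb7 (0.09 ± 0.18), Psme2 (-0.18 ± 0.28), Psme3 (-0.04 ± 0.10) and Psme4 (0.14 ± 0.12) were not called. With library totals in place of TMM, all genes shifted by -0.29 and no proteasome gene was called higher. Relative to the median of all genes, Psme1 was at 0.30 with library totals and 0.29 with TMM. The rises of Psmb10 and Psme1 were each lost on leaving out any of 5 P4 libraries (female 1 and 3 and male 1 and 3 for both, male 2 for Psmb10 and female 4 for Psme1, adjusted p 0.058 to 0.22), and Psmd2 on leaving out any of 5 (female 1, 2 and 3, male 2 and 4, adjusted p 0.0503 to 0.066). Those of Psmd11 (0.31, adjusted p = 0.067) and Psmd12 (0.23) were lost without male P4 library 1, and that of Psmd12 also without male P4 library 3. Cell markers moved too, and all 8 microglial markers were higher at P14 than at P4. All 6 neutrophil markers, 3 of 4 monocyte, 4 of 6 neuronal and 3 of 4 red blood cell markers tested were lower. The part of these cells in the changes from P4 to P14 was not tested.

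Psmc3ip, which carries a proteasome-like symbol but encodes a partner of meiotic recombination, had the largest fall among the 48 symbols in that interval. It had a median of 2.37 CPM at P14 (0 to 7.05), against 9.95 CPM at P4 (8.13 to 13.3), without overlap, and changed by -1.51 ± 0.31 (adjusted p = 1.1e-04). 2 further genes belong to other organs. Psma8, the alpha subunit of testis, stayed at means between 1.54 and 3.63 CPM over the 5 groups. Psmb11, the catalytic subunit of the thymic cortex, had 19 counts in all 60 libraries and was not tested.

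Psmb9 and Psmb8 rose between P14 and P60. In P60 saline libraries, 3 genes were higher and 7 lower than at P14, where 18.5% and 25.7% of all genes were, and the median was -0.03 against -0.06 over all genes tested. Psmb9 had a median of 17.2 CPM in P60 saline libraries (8.58 to 48.6), against 9.85 CPM at P14 (4.2 to 15.4), a log2 fold change of 0.96 ± 0.20 (adjusted p = 1.5e-04). Psmb8 had a median of 46.8 CPM in P60 saline libraries (33.3 to 102), against 35.6 CPM at P14 (16.7 to 49.8), a change of 0.58 ± 0.18 (adjusted p = 0.0089). The ranges overlapped for both genes. Psmb10 had a median of 30.0 CPM in P60 saline libraries (21.3 to 66.1), against 23.9 CPM at P14 (8.82 to 45.9), and its change of 0.42 ± 0.20 missed the threshold (adjusted p = 0.080). It was called on leaving out female P60 saline library 4 or 7 or male library 3 (0.51 to 0.55). The third gene that rose was Psmd5, a chaperone of cap assembly (0.43 ± 0.12, adjusted p = 0.0040).

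Of the 7 genes lower in P60 saline libraries than at P14, 5 were cap subunits. Psmd11, a lid subunit, had a mean of 25.8 ± 5.28 CPM in P60 saline libraries and 37.3 ± 6.90 CPM at P14 (SD, n = 12 and 20), and fell by 0.58 (SE 0.12, adjusted p = 9.9e-05). Psmd8, another lid subunit, fell by 0.54 (SE 0.12, adjusted p = 4.2e-04), and both had been called higher at P14 than at P4. Psmd3 fell by 0.34 (SE 0.12), Psme3 by 0.31 (SE 0.09), Psmc1 by 0.28 (SE 0.09) and Psmd12 by 0.26 (SE 0.09). Psmb6 fell by 0.43 (SE 0.18, adjusted p = 0.044), whereas Psmb7 (0.09 ± 0.16) and Psmb5 (0.12 ± 0.22) were not called, nor were Psme1 (0.02 ± 0.10), Psme2 (-0.04 ± 0.28) and Psme4 (-0.19 ± 0.11). The Psmb6 call was lost on leaving out any P60 saline library but female 6 and male 4 (adjusted p 0.058 to 0.17), and that of Psmd3 on leaving out female 2, 4, 6 or 7 or male 3 (0.051 to 0.092). With collection date as a random block in limma-voom, Psmb9 (adjusted p = 0.061) and Psmb8 (adjusted p = 0.21) missed the threshold, and no date in the sample descriptions holds more than 1 stage. Markers of other cells moved in the same comparison: 6 of 8 microglial and 3 of 5 choroid plexus markers were higher in P60 saline libraries than at P14, and 4 of 5 border macrophage, 4 of 6 neuronal and 3 of 6 neutrophil markers were lower. Their part in these results was not tested.

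**Figure D3:**
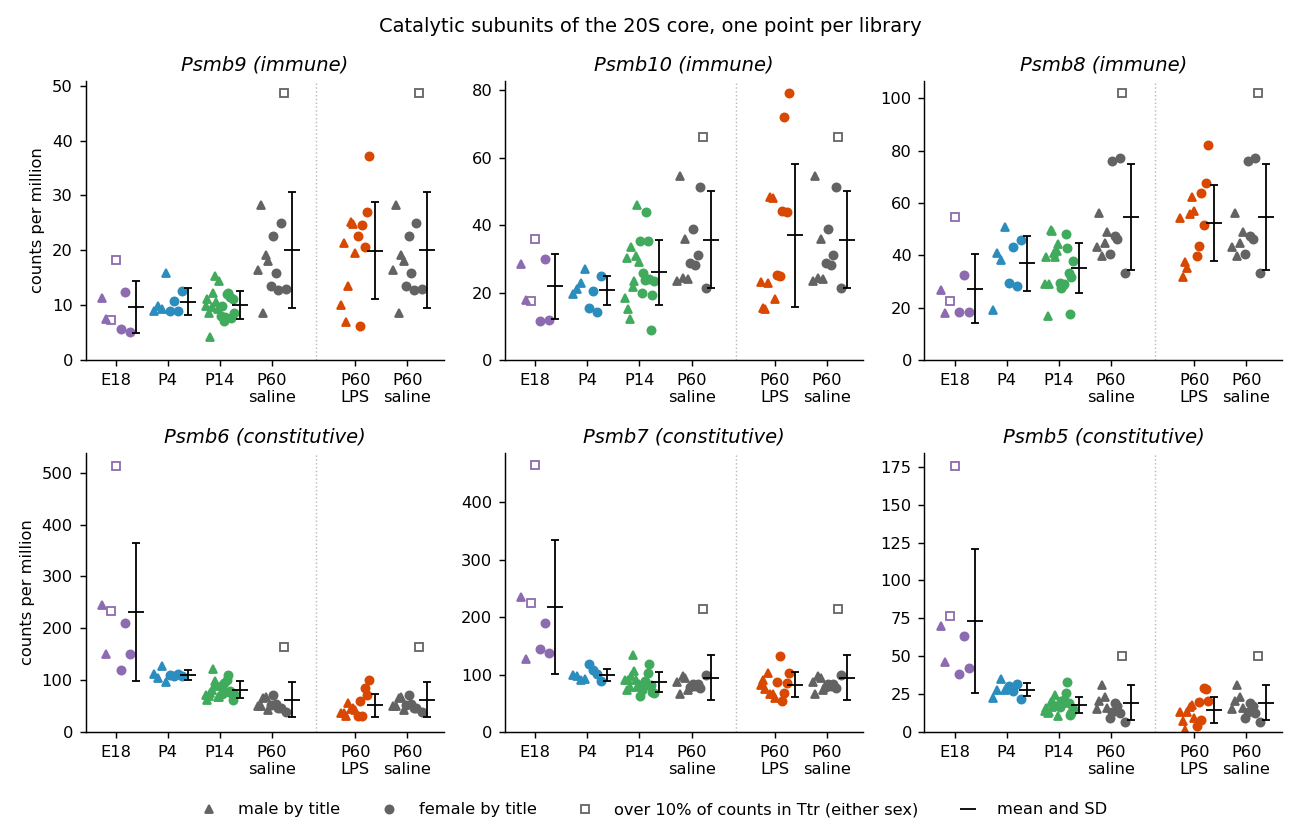
CPM (vertical axis) of the immune catalytic genes in the upper row and of the constitutive gene of the same site below each, 1 point per library, with mean and SD, from E18 to P60 saline and, right of the dotted line, P60 LPS beside P60 saline (the saline libraries are drawn in both places). The constitutive genes are highest at E18, and female P60 saline library 6 lies above the other saline libraries in all 6 panels.

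Over the whole interval, 29 of 47 genes were lower in P60 saline libraries than at E18 and 6 were higher, where 34.8% and 31.4% of all genes were. The medians were -0.49 over the proteasome genes and -0.08 over all genes tested. All 3 immune catalytic genes were called higher, Psmb9 by 1.43 ± 0.28 (adjusted p = 1.7e-05), Psmb8 by 1.30 ± 0.26 (adjusted p = 1.8e-05) and Psmb10 by 1.08 ± 0.27 (adjusted p = 6.2e-04). All 3 constitutive ones were called lower, Psmb6 by -1.55 ± 0.22 (adjusted p = 3.3e-08), Psmb5 by -1.51 ± 0.26 (adjusted p = 2.0e-06) and Psmb7 by -0.87 ± 0.20 (adjusted p = 1.6e-04). These 6 calls held under each alternative run. The other genes called higher were Psma8 (1.35 ± 0.46, from a mean under 4 CPM in both groups), Psme4 (0.60 ± 0.14) and the ATPase Psmc2 (0.26 ± 0.11). Psmc3ip changed by -1.87 ± 0.36 and Psmb3 by -1.38 ± 0.28. Psme3 fell by 0.33 (SE 0.12, adjusted p = 0.012), and Psme1 (-0.09 ± 0.12) and Psme2 (-0.19 ± 0.34) were not called. In the same comparison all 8 microglial markers were higher and all 6 neuronal markers lower. All genes of up to 1500 bases had a median of -0.49 and longer ones 0.01. For the proteasome genes the medians of these length classes were -0.69 and -0.35. The part of these cells or of length in these results was not tested.

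Setting each immune subunit against the constitutive subunit of its own site gave a measure that does not depend on how libraries are scaled. It can still move with transcript length, as each immune transcript is longer than its partner. Psmb9 has 1352 bases and Psmb6 798, Psmb10 1311 and Psmb7 1160, and Psmb8 1628 and Psmb5 899. All genes of up to 1500 bases had a median change of -0.51 for P4 over E18, and longer ones 0.11. For P60 saline over E18 these medians were -0.49 and 0.01. Only Psmb8 and Psmb5 lie on either side of 1500 bases, and in the other pairs both transcripts are shorter. These medians therefore say nothing of length within those pairs. The part of length in the ratios was not tested. The log2 ratio of counts, with 0.5 added to each, was tested for 3 pairs in 5 comparisons by two-sided permutation tests, adjusted over the 15. Psmb9 to Psmb6 averaged -4.53 ± 0.33 at E18, -3.36 ± 0.38 at P4, -3.01 ± 0.44 at P14 and -1.63 ± 0.54 in P60 saline libraries (SD, n = 7, 8, 20 and 12). Psmb10 to Psmb7 averaged -3.28 ± 0.44, -2.27 ± 0.42, -1.82 ± 0.64 and -1.43 ± 0.55 at the same stages. Psmb8 to Psmb5 averaged -1.34 ± 0.30, 0.35 ± 0.50, 0.97 ± 0.43 and 1.58 ± 0.67. Each of the 3 mean ratios was thus higher at each later stage. The constitutive genes have related copies between which the counting may split reads. These are Psmb5-ps for Psmb5, Psmb6-ps and Psmb6-ps2 for Psmb6, and Psmb7-ps1 and Psmb7-ps2 for Psmb7. No such copy is listed for Psmb8, Psmb9 or Psmb10.

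At P4 against E18 all 3 ratios were higher in exact permutation tests. Psmb8 to Psmb5 differed by 1.69 and Psmb9 to Psmb6 by 1.17 (adjusted p = 3.9e-04 for both), and in both all 8 P4 libraries lay above the highest E18 library. Psmb10 to Psmb7 differed by 1.01 (exact permutation, adjusted p = 0.0033), with 6 of 8 P4 libraries above the highest E18 library. At P14 against P4, Psmb8 to Psmb5 differed by 0.61 (exact permutation, adjusted p = 0.0058), while Psmb9 to Psmb6 (0.35, adjusted p = 0.087) and Psmb10 to Psmb7 (0.45, adjusted p = 0.11) did not pass the exact permutation test. Without male P4 library 4 the ratio of Psmb9 to Psmb6 passed the exact permutation test (0.46, adjusted p = 0.021). The 8 P4 libraries came from 4 dates, 1 male and 1 female on each, and these tests treat them as independent. For Psmb8 to Psmb5 the date means overlapped, at 0.74, 0.92 and 1.26 on the P14 dates and -0.15, 0.62, -0.02 and 0.96 on the P4 dates. In P60 saline libraries against P14, Psmb9 to Psmb6 differed by 1.38 (permutation test, adjusted p = 7.4e-05, from a raw p of 1e-05, the smallest that 100000 resamples can give), with 11 of 12 saline libraries above the highest P14 library. Psmb8 to Psmb5 differed by 0.61 (permutation test, adjusted p = 0.0061), and Psmb10 to Psmb7 by 0.39 (permutation test, adjusted p = 0.11).

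In P60 saline libraries against E18 the ratios were 7.44-fold higher for Psmb9 to Psmb6, 7.54-fold for Psmb8 to Psmb5 and 3.62-fold for Psmb10 to Psmb7 (exact permutation, adjusted p = 7.4e-05 for each). All 12 saline libraries lay above the highest E18 library in each pair. Male E18 libraries 3 and 4 had the lowest ratios of their group for Psmb8 to Psmb5 and Psmb10 to Psmb7, and without the libraries over 10% Ttr no call of a ratio changed. The means per collection date of Psmb9 to Psmb6 lay between -4.88 and -4.23 on the 4 E18 dates, between -3.69 and -2.83 on the 4 P4 dates, between -3.38 and -2.64 on the 3 P14 dates and between -1.99 and -1.35 on the 3 P60 saline dates. For the other pairs the E18 dates lay lowest, at -3.68 to -2.84 for Psmb10 to Psmb7 and -1.72 to -1.04 for Psmb8 to Psmb5, and dates of later neighbouring stages overlapped. P14 date 3-14-14, at -1.47 for Psmb10 to Psmb7, lay above 2 saline dates (-1.66 and -1.82), and at 1.26 for Psmb8 to Psmb5 above saline date 4-3-14 (1.15).

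**Figure D4:**
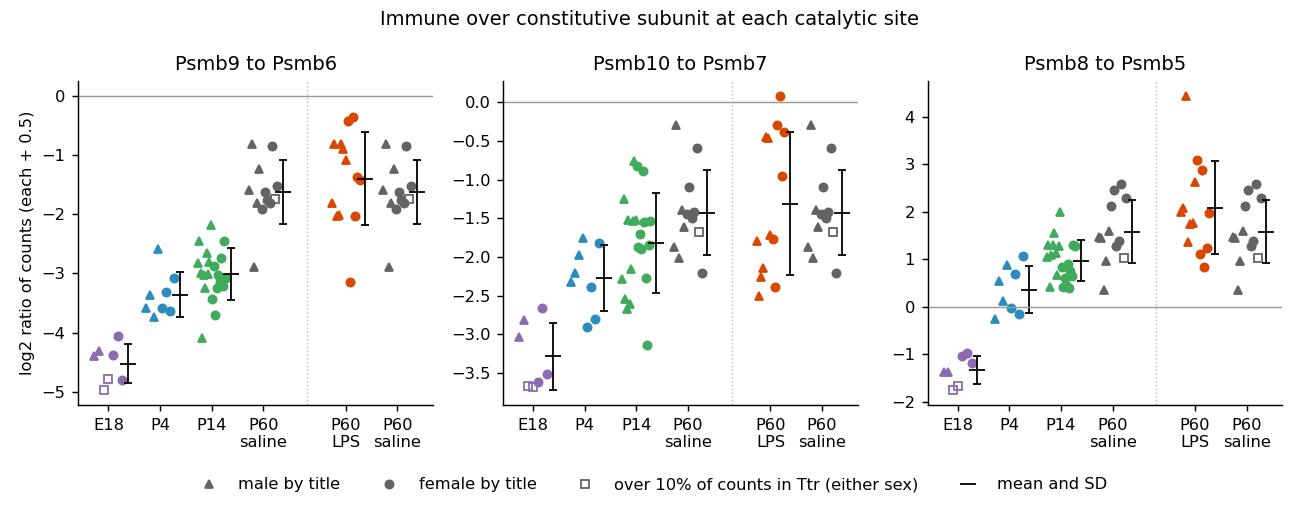
Log2 ratio of counts of each immune subunit to the constitutive subunit of its site (vertical axis, 0.5 added to each count), 1 point per library, with mean and SD, from E18 to P60 saline and, right of the dotted line, P60 LPS beside P60 saline (the saline libraries are drawn in both places). The Psmb8 to Psmb5 ratio lies below 0 in all 7 E18 libraries and above 0 in all P14 and P60 libraries, and the LPS and saline points overlap in each panel.

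Per kilobase of transcript, the immune subunits had median ratios below 1 at every stage at 2 of the 3 sites. Psmb9 averaged 14.9 ± 7.81 CPM per kilobase in P60 saline libraries and 7.12 ± 3.47 at E18, and Psmb6 averaged 78.0 ± 42.3 in P60 saline libraries and 290 ± 166 at E18 (SD, n = 12 and 7). The median ratio per length of Psmb9 to Psmb6 was 0.0273 at E18, 0.0523 at P4, 0.0709 at P14 and 0.181 in P60 saline libraries. For Psmb10 to Psmb7 it was 0.0759, 0.183, 0.257 and 0.318 at the same stages. For Psmb8 to Psmb5 it was 0.212 at E18, 0.704 at P4, 1.09 at P14 and 1.53 in P60 saline libraries. In P60 saline libraries the levels per kilobase of all subunits ran from 0.031 (Psmb11) to 117 CPM (Psma6). Psmb5, at 21.7 ± 12.9, was then the lowest of the 3 constitutive catalytic genes, with Psmb6 (78.0) and Psmb7 (81.8 ± 33.2) within each other's spread. The related copies of these genes, named above, may take part of their reads.

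None of the 6 catalytic genes was called with LPS. The activators Psme1 and Psme2 were called higher, Psme1 near the threshold and Psme2 after a filter on low counts that only LPS libraries met. Of 43 proteasome genes tested, 2 were higher in P60 LPS than in P60 saline libraries and 0 lower (edgeR, adjusted p under 0.05; DESeq2 also called 0 lower), where 10.5% and 3.95% of all 10538 genes tested were. The median was 0.02, against -0.07 over all genes tested. Psmb9 had a median of 21.3 CPM in LPS libraries (6.21 to 37.1), against 17.2 CPM in saline libraries (8.58 to 48.6), a log2 fold change of 0.12 ± 0.26 (adjusted p = 0.81). Psmb8 had a median of 54.3 CPM in LPS libraries (31.9 to 82.1), against 46.8 CPM in saline libraries (33.3 to 102), a change of 0.07 ± 0.18 (adjusted p = 0.83). Psmb10 had a median of 25.2 CPM in LPS libraries (15.2 to 79.2), against 30.0 CPM in saline libraries (21.3 to 66.1), a change of 0.14 ± 0.25 (adjusted p = 0.77). Intervals of 2 SE either side were -0.41 to 0.65 for Psmb9, -0.28 to 0.43 for Psmb8 and -0.36 to 0.63 for Psmb10. Psmb5 (-0.35 ± 0.32), Psmb6 (-0.16 ± 0.23), Psmb7 (-0.09 ± 0.18), Psme3 (0.09 ± 0.11) and Psme4 (0.02 ± 0.12) were not called. Among genes not called, the smallest adjusted p was that of Psma6, an alpha ring gene (0.40 ± 0.15, adjusted p = 0.084). The largest change was that of Psmd9, a chaperone of cap assembly (-0.44 ± 0.25, adjusted p = 0.27). Both were named after their values were seen.

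The 2 genes called with LPS were the paired activators of the immunoproteasome. Psme1 had a median of 79.0 CPM in LPS libraries (45.2 to 103), against 67.7 CPM in saline libraries (57.5 to 77.3), a change of 0.35 ± 0.12 (adjusted p = 0.046). Psme2 had a median of 7.96 CPM in LPS libraries (1.03 to 13.5), against 3.67 CPM in saline libraries (1.51 to 5.47), a change of 1.12 ± 0.27 (adjusted p = 0.0040). The ranges overlapped for both. The Psme1 call was lost on leaving out any of 11 libraries (LPS female 1 and 6 and male 3, 4 and 7, saline female 1 and 3 and male 1, 3, 4 and 5, adjusted p 0.051 to 0.11). Psme2 held 1 to 18 counts per LPS library and 2 to 14 per saline library. It has a related copy, Psme2b, between which the counting may split reads. It passed the filter on low counts in 13 of the 25 fits that left out 1 library, and was called in all 13. In these fits and the main one it passed only through LPS libraries, as saline libraries were too low to reach the level of the filter. Its call in the main fit, and those in the fits that left out 1 library, are therefore not taken as support for a rise. With collection date as a random block neither activator passed (Psme2, adjusted p = 0.072), Psme2 also missed the threshold without the LPS libraries of 4-8-14 (0.99, adjusted p = 0.053), and no date holds both treatments.

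The immune to constitutive ratios with LPS differed from those with saline by 0.23 for Psmb9 to Psmb6 (adjusted p = 0.44), 0.12 for Psmb10 to Psmb7 (adjusted p = 0.70) and 0.50 for Psmb8 to Psmb5 (adjusted p = 0.17), all by permutation tests with 13 and 12 libraries. Their SDs within the LPS group were 0.79, 0.92 and 0.98. The LPS dates 4-10-14, 4-8-14 and 4-9-14 differed from the saline mean by 0.43, 0.32 and -0.09 for Psmb9 to Psmb6, by 0.55, -0.32 and 0.24 for Psmb10 to Psmb7 and by 0.32, 0.65 and 0.51 for Psmb8 to Psmb5. The last value includes male LPS library 3, with a log2 ratio of 4.44 on 1 count of Psmb5, and the other 3 libraries of that date had 0.83, 1.35 and 1.73, against a saline mean of 1.58. Without that library the difference over all dates was 0.31 (permutation test, adjusted p = 0.33). Per length, the median ratios in LPS and saline libraries were 0.225 and 0.181 for Psmb9 to Psmb6, 0.265 and 0.318 for Psmb10 to Psmb7 and 2.19 and 1.53 for Psmb8 to Psmb5.

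**Figure D5:**
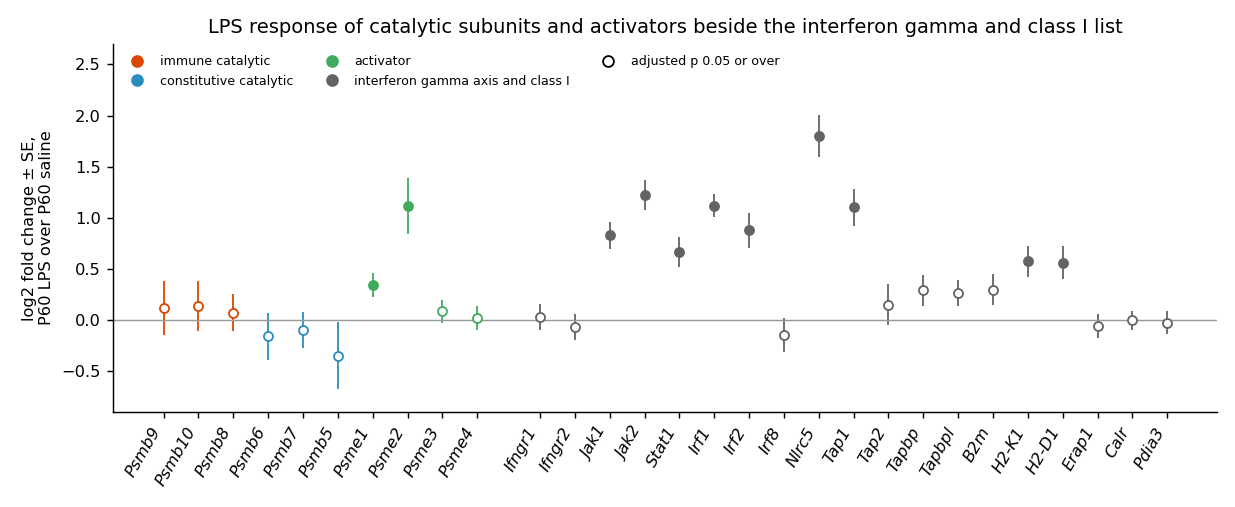
Log2 fold change and its SE in P60 LPS over P60 saline libraries (vertical axis) for the catalytic subunits, the activators and 19 genes of the interferon gamma axis and class I processing (horizontal axis). Filled points passed an adjusted p of 0.05, which Psme1, Psme2 and 9 of the 19 listed genes did and none of the 6 catalytic subunits did.

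2 lists from outside the set give its setting. Of 20 genes of the interferon gamma axis and class I processing, 19 were tested, 9 were higher with LPS and 0 lower, with a median of 0.30. Nlrc5, the activator of class I genes, rose most (1.8 ± 0.21, adjusted p = 1.1e-07), to a median of 44.3 CPM in LPS libraries, against 11.9 CPM in saline libraries. Jak2, a kinase of the interferon gamma receptor (1.22 ± 0.14), Irf1, a transcription factor of immunoproteasome genes (1.12 ± 0.11), and Tap1, the peptide transporter gene beside Psmb9 (1.10 ± 0.18), also rose. Irf1 had 176 to 331 CPM in LPS libraries, against 80.7 to 149 CPM in saline libraries, without overlap. Ifng itself had 12 counts over all LPS libraries and 13 over all saline libraries. Through development the same list was higher in 16 of 19 at P4 than at E18, in 10 at P14 than at P4, in 9 (with 3 lower) in P60 saline libraries than at P14 and in 18 in P60 saline libraries than at E18, where its median was 1.39. The shares of all genes called higher in these comparisons were 10.5% with LPS, and 25.5%, 20.6%, 18.5% and 31.4% through development.

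Of 22 partners of the proteasome, 8 were higher and 5 lower at P4 than at E18, where 25.5% and 22.7% of all genes were. Nfe2l2, the transcription factor of the oxidative stress response (1.95 ± 0.23), and AI314180, a scaffold of the proteasome (0.88 ± 0.18), rose most. Shfm1, a small cap subunit (-0.78 ± 0.29), and the ubiquitin shuttle Ubqln2 (-0.73 ± 0.22) fell most. With LPS, Zfand5, which stimulates the proteasome (1.04 ± 0.14), and Nfe2l2 (0.69 ± 0.11) rose, and Akirin2, which carries proteasomes into the nucleus, fell by 0.50 (SE 0.15), 3 of 21 tested, where 10.5% of all genes were higher and 3.95% lower. The first 2 are averages over sexes between which a difference was called. By the sex in the titles, the LPS effect was larger in males by 1.22 ± 0.28 for Zfand5 (adjusted p = 0.039) and 0.89 ± 0.21 for Nfe2l2 (adjusted p = 0.040). Neither call was tried with the other sex label or with libraries left out. For P14 over P4, 5 partners were higher and 2 lower (all genes 20.6% and 20.8%), for P60 saline over P14 1 and 6 (18.5% and 25.7%), and for P60 saline over E18 7 and 6 (31.4% and 34.8%). Markers of cell types moved with LPS as well. Of 8 microglial markers, 3 were lower with LPS and 0 higher. Of 6 endothelial markers, 3 were lower and 1 higher. The 1 neuronal marker tested was lower, and no choroid plexus or border macrophage marker was called. Neutrophil markers summed to 316 to 5089 CPM in LPS libraries and 16.4 to 343 CPM in saline libraries, with 4 of 4 tested higher, and monocyte markers to 43.2 to 407 CPM in LPS libraries and 11.3 to 64.8 CPM in saline libraries, with 3 of 4 higher. Lymphocyte markers summed to 0 to 8.56 CPM in LPS libraries (median 3.98) and 1.03 to 5.69 CPM in saline libraries (median 3.32), and none of the 7 was tested. The part of these cells in the LPS results was not tested.

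With sex taken from the sample titles, no proteasome gene was called between males and females at any stage or in the difference of their LPS responses. Of all genes, 0.0722% were called at E18, 0.0433% at P4, at P14 and with saline at P60, 0.142% with LPS and 0.883% in the difference of LPS responses. At E18 the males of the titles had a median log2 fold change of 0.71 over females. By the sex field, however, male E18 libraries 1 and 4 are female and female E18 library 2 is male. There 25 of 47 proteasome genes had an unadjusted p under 0.05, 24 of them higher in males, where 18.8% of all genes had one. DESeq2 called 7 and limma-voom with sample weights 16 there, and edgeR called 11 without male E18 library 1 and 24 without male E18 library 2. Male E18 libraries 3 and 4 were those over 10% Ttr, and without them 0 were called and the median was 0.12. An unadjusted p under 0.05 was reached at P4 by 0 of 47 genes (0.332% of all genes) and at P14 by 0 of 47 (4.73%). At P60 it was reached by 4 of 43 with LPS (16.2% of all genes) and 5 of 47 with saline (9.67%). For the LPS response in males minus that in females it was 1 of 43, where 21.4% of all genes reached it. DESeq2 called 0 at P4, P14 and in both P60 groups.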

How the data were processed

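RNA of 60 microglial libraries was counted by the authors, who deposited a table of raw counts with 28644 rows for 22869 gene symbols. CASAVA 1.8.2, the mm9 build and edgeR are named in the submitters' processing notes, and no source used here names the aligner or counter. A symbol with several rows, as 4 of the 48 proteasome genes had, was taken from the row the authors marked as best, or else from the row with the highest total. Counts were divided by the library total over all genes (CPM, per 1000000). Libraries were grouped by stage, treatment and the sex in the sample title, which disagreed with the sex field in 10 libraries.

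Tests were edgeR 4.0.16 quasi-likelihood F tests (robust, TMM scaling, filterByExpr) in R 4.3.3, with sexes averaged equally and Benjamini-Hochberg adjustment over all genes tested, called at an adjusted p under 0.05. One fit held the 47 libraries of E18, P4, P14 and P60 saline (13853 genes), and another the 25 P60 libraries (10538 genes). Ratios were tested in Python 3.11.15 with numpy 2.4.6, exactly where a group had under 10 libraries and otherwise with 100000 resamples. Both kinds of test were tested on simulated data. Transcript lengths came from GENCODE vM21 and promoters from RefSeq, both on GRCm38, and were matched by symbol. No protein sequences were used here. The split by length at 1500 bases was chosen after seeing the data.

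Named in full were the 6 catalytic genes and the activators Psme1 to Psme4, and then, in each comparison, up to 4 called genes with the largest rise and 4 with the largest fall, each averaging 10 CPM or more in 1 of the groups set against each other. Others called are given by their values where few. The members and the lists of partners, interferon gamma genes and cell markers were chosen with earlier results of these data known. Alternatives were limma-voom 3.58.1 with sample weights, DESeq2 1.42.0, other scalings, filters and row rules, the other sex label, replicate and date blocks, and leaving out libraries. Same-numbered libraries deviated together in every pair between male and female P4 (4 pairs, r 0.35 to 0.43, the same dates) and between female P4 and female E18 (3 pairs, r 0.12 to 0.40), and not in the other 13 pairings. No 2 libraries of a group agreed within sampling noise, and no library was left out.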

Additional observations from a re-analysis of the deposited data

Results flagged for a closer look

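In 8 of 117 tests (6.84%) of the catalytic and activator levels and of the ratios, 1 library lay far from the others of its sex, stage and treatment by Dixon's criterion, where chance gives about 1 in 20. In female P60 saline library 6, which held 12% of its counts in Ttr, Psmb9 had 48.6 CPM where the other 6 libraries had 12.7 to 25, and Psmb6 had 165 CPM where they had 38 to 70.8. The same library had 213 CPM of Psmb7 (others 77.4 to 100.01) and 49.9 CPM of Psmb5 (others 6.48 to 19.4). Psmb9 had 15.9 CPM in male P4 library 4, against 9.01 to 9.87 in the other 3. Psme3 had 144 CPM in female P14 library 6, against 72.1 to 100.3 in the other 9. The log2 ratio of Psmb9 to Psmb6 was -0.85 in female P60 saline library 5, against -1.92 to -1.52 in the others. The log2 ratio of Psmb8 to Psmb5 was 4.44 in male P60 LPS library 3, where Psmb5 had 1 count, against 1.35 to 2.61 in the others.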

How the results depend on the processing

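Of 734 values of single proteasome genes under the alternatives, 665 kept their side of the threshold with no reversal of a called change. Changes of sign between uncalled values were not counted. Of 193 counts, 151 stayed within 1.5 times. Among 105 ratios 102 were unchanged, but 15 of the 105 were date means with no test, judged by distance within the larger SD. The 6 catalytic genes had 1 row each, so choosing or summing rows could not change a ratio. Leaving out the Ttr libraries could not change one for P14 over P4. Where a value changed, the cause was not tested. Against TMM, the all-gene median moved under DESeq2 size factors by -0.12 for P4 over E18, -0.11 for P14 over P4 and -0.18 for P60 saline over E18, and library totals by -0.29 for P14 over P4 and -0.36 for P60 saline over E18. Relative to all genes, the proteasome median for P4 over E18 was then -0.53 and -0.47.

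For P4 over E18, genes called higher numbered 4 with limma-voom, 3 without the libraries over 10% Ttr, and 2 with the other sex label, with a date block or without male E18 library 4; 16 were called lower with a date block. For P14 over P4, those higher numbered 3 with summed rows, 2 with DESeq2 or no filter, 1 with DESeq2 size factors or a date block and 0 with library totals, and those lower 8 with limma-voom, 18 with library totals, 7 without the Ttr libraries and 1 with a date block. Psme1 was there at -0.0064 with library totals (adjusted p = 0.96), under that all-gene shift of -0.29. For P60 saline over P14, those higher numbered 7 with summed rows, 6 with DESeq2, limma-voom or no Ttr libraries, 5 with DESeq2 size factors and 0 with a date block, and those lower 13 with limma-voom, 4 with summed rows and 2 with a date block. For P60 saline over E18, 3 were higher with library totals. For LPS over saline, 1 was higher with library totals, no filter, summed rows, the other sex label or without the LPS date 4-8-14 or 4-9-14, and 0 with a date block or without 4-10-14, and 2 were lower with library totals. Between sexes at E18, DESeq2 called 7 and limma-voom 16. The LPS response differed by sex for 1 gene with limma-voom or without the Ttr libraries. With a pseudocount of 2, Psmb9 to Psmb6 passed for P14 over P4 (0.39, exact permutation, adjusted p = 0.045).

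With the replicate number as a block, 2 genes were higher and 1 lower for P14 over P4 and 1 was higher with LPS. In the paired ratios Psmb10 to Psmb7 passed for P60 saline over P14 (0.56) and Psmb8 to Psmb5 did not for P14 over P4 (0.47). In these 3 comparisons the numbers do not pair the libraries.

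Leaving out 1 library at a time, from groups of at most 7 per sex and so no P14 library, gave 1 to 2 higher and 19 to 30 lower for P4 over E18, 1 to 6 and 1 to 2 for P14 over P4, 3 to 7 and 3 to 7 for P60 saline over P14, and 5 to 6 and 25 to 33 for P60 saline over E18. It gave 0 to 3 higher with LPS, 0 to 24 between sexes at E18, 0 to 1 for the LPS response by sex, and 0.30 to 0.46 for Psmb9 to Psmb6 at P14 over P4. Psme2, Psma8 and Psmb11 had too few counts for firm values.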
